A study of Mus musculus with 8 samples.

Results

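The genes described here store, release and make triglyceride: 37 mouse genes chosen by symbol from this pathway and looked up in a table of 23847 rows, with the most abundant row standing for each symbol. All 37 were found. Poly(A) RNA was measured in heart ventricles of C57BL/6 mice at postnatal day 21, in 4 libraries from mice with a cardiac knockout of Med1 and 4 from mice with floxed Med1 (Med1 fl/fl), called WT here. Med1 belongs to Mediator, a coactivator complex through which nuclear receptors and other transcription factors reach RNA polymerase II. The sources used here do not give the promoter that drove the deletion, nor say that a sample was 1 animal, so the p-values cover only the spread among these samples, which may be technical.

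The heart takes most of its fatty acid from circulating lipoproteins. Lipoprotein lipase on the capillary wall frees it, cells join it to glycerol in a chain of acyl transfers, and the resulting triglyceride is kept in droplets coated with perilipins. A second chain of lipases frees it again for the mitochondria. Many genes of the pathway are known targets of PPAR nuclear receptors, and those of fatty acid synthesis and desaturation of SREBP and LXR.

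Values are FPKM (fragments scaled to transcript length and to the fragments of the library), which allow levels of different genes to be compared per length. Total FPKM ran from 481719 to 502629 in knockout libraries and from 507484 to 536174 in WT, and the number of fragments behind them is unknown. Med1 itself averaged 8.31 ± 0.619 FPKM in knockout ventricles and 14.8 ± 2.83 in WT (SD, n = 4 each). Its log2 change was -0.74 (limma adjusted p = 0.0011). Log2 changes are knockout minus WT on log2(FPKM + 1), errors of log2 changes are standard errors, and genes with an adjusted p under 0.05 in limma are called higher or lower. The median of all 11975 genes tested was itself 0.25 higher in the knockout on this scale. Calls that differ once libraries are rescaled, which moves that median to 0.01, are given below as rescaled values.

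Of the 37 genes, 36 reached the mean of 1 FPKM needed for the test. In the knockout 10 were higher, 11 were lower and 15 were not called, and their median log2 change was 0.12. Among all genes tested, 44.9% were higher and 16.4% lower. After rescaling, 5 of the 36 were higher and 13 lower, with a median of -0.14, against 27% and 26.9% of all genes. Quantile normalization also gave 5 higher and 13 lower, against 28.7% and 25.6% of all genes. A fall of at least 2-fold was called in 8 of the 36, where 5.16% of all genes had one, and a rise of at least 2-fold in 3, where 9.03% had one. The 8 were Plin5, Dgat2, Lpin1, Lpl, Gpam, G0s2, Plin4 and Acacb. The 3 were Cidea, Elovl1 and Lpin3. Each knockout library lay below each WT library in 10 members, where 15.3% of all genes did so, and above in 7, where 41.7% did.

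**Figure D1:**
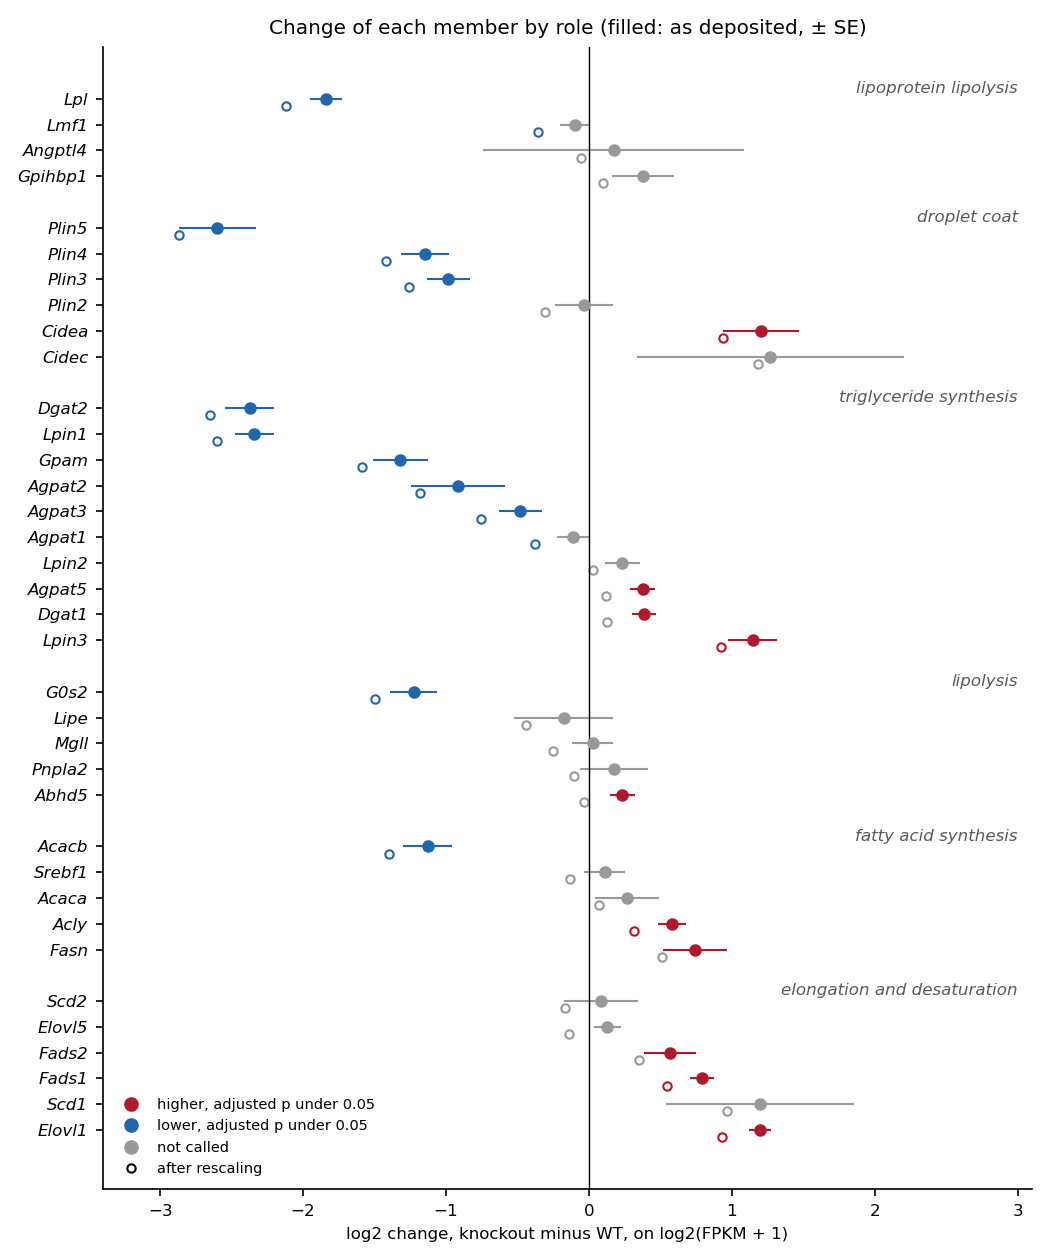
Log2 change of each of the 36 tested genes, knockout minus WT on log2(FPKM + 1), grouped by role. Filled points with bars are the changes as deposited with their standard errors (n = 4 each), open points the changes after rescaling, red is called higher, blue called lower and grey not called. The lowest points are Plin5, Dgat2 and Lpin1. The elongation and desaturation group holds no gene called lower, but its 6 tested genes are too few to set it apart from the 16.4% of all genes.

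Genes that capture lipoprotein fatty acid were led by a fall of Lpl, while its capillary anchor was not called. Lpl (chromosome 8, 68880555 to 68906932, mm10, plus strand) encodes lipoprotein lipase and was the most abundant of the 37 genes. It had 306, 278, 237 and 289 FPKM in knockout libraries and 1168, 939.7, 895 and 983 FPKM in WT libraries. The groups were far apart, since the highest knockout library, at 306 FPKM, stood below the lowest WT library, at 895 FPKM. The knockout mean was 27.8% of WT, and Lpl fell by 1.84 ± 0.11 on the log2 scale (limma adjusted p = 2.21e-06). In bulk tissue, fewer cells of a type and less RNA per cell cannot be told apart. The summed level of 10 cardiomyocyte markers was also lower, 18229 to 28260 FPKM in knockout libraries and 51052 to 57273 in WT. Of the 10, 9 were lower and 1, Actn2, was higher (log2 change 0.60), as deposited and after rescaling. Quantile normalization left 7 lower and 1 higher. The part of these markers in this and the other falls was not tested.

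Gpihbp1 encodes the endothelial protein that carries the lipase to the capillary lumen. It had 225, 125, 145 and 130 FPKM in knockout libraries and 109, 160.3, 117 and 89.9 FPKM in WT libraries. The groups overlapped, since WT 2 stood above 3 knockout libraries, and the gene was not called (log2 change 0.38 ± 0.217, limma adjusted p = 0.158). Lmf1, which matures the lipase in the endoplasmic reticulum, averaged 10.2 ± 0.972 FPKM in the knockout and 11.1 ± 1.44 in WT (SD, n = 4 each). It was not called as deposited (log2 change -0.10, limma adjusted p = 0.436) and was lower after rescaling (-0.36, limma adjusted p = 0.0182).

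Angptl4, a secreted inhibitor of the lipase that fasting induces, turned on 1 library. It had 8.65, 5.09, 6.67 and 13.5 FPKM in knockout libraries and 4.95, 68.6, 4.04 and 0.94 FPKM in WT libraries. WT 2 alone was high, and every knockout library was above the other 3 WT libraries. With all libraries the log2 change was 0.17 ± 0.915 (limma adjusted p = 0.882). Without WT 2 it was 1.21 (limma adjusted p = 0.0356). Without Angptl4 itself, the summed level of 7 fasting-responsive genes was 108 to 164 FPKM in knockout libraries and 259, 775, 190.3 and 72.6 FPKM in WT libraries. Pdk4 alone made up 547 FPKM of the sum in WT 2. Without Pdk4 the other 6 summed to 37.2 to 67.0 FPKM in knockout libraries and 35.9 to 228 FPKM in WT libraries, and WT 2 was again the highest. Of the list, only Ucp3 was called. It had 0.69 to 2.65 FPKM in knockout libraries and 6.19 to 67.5 FPKM in WT libraries (log2 change -3.05, limma adjusted p = 0.00163). Feeding state is not given in the sources used here, and its part in the Angptl4 values was not tested.

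**Figure D2:**
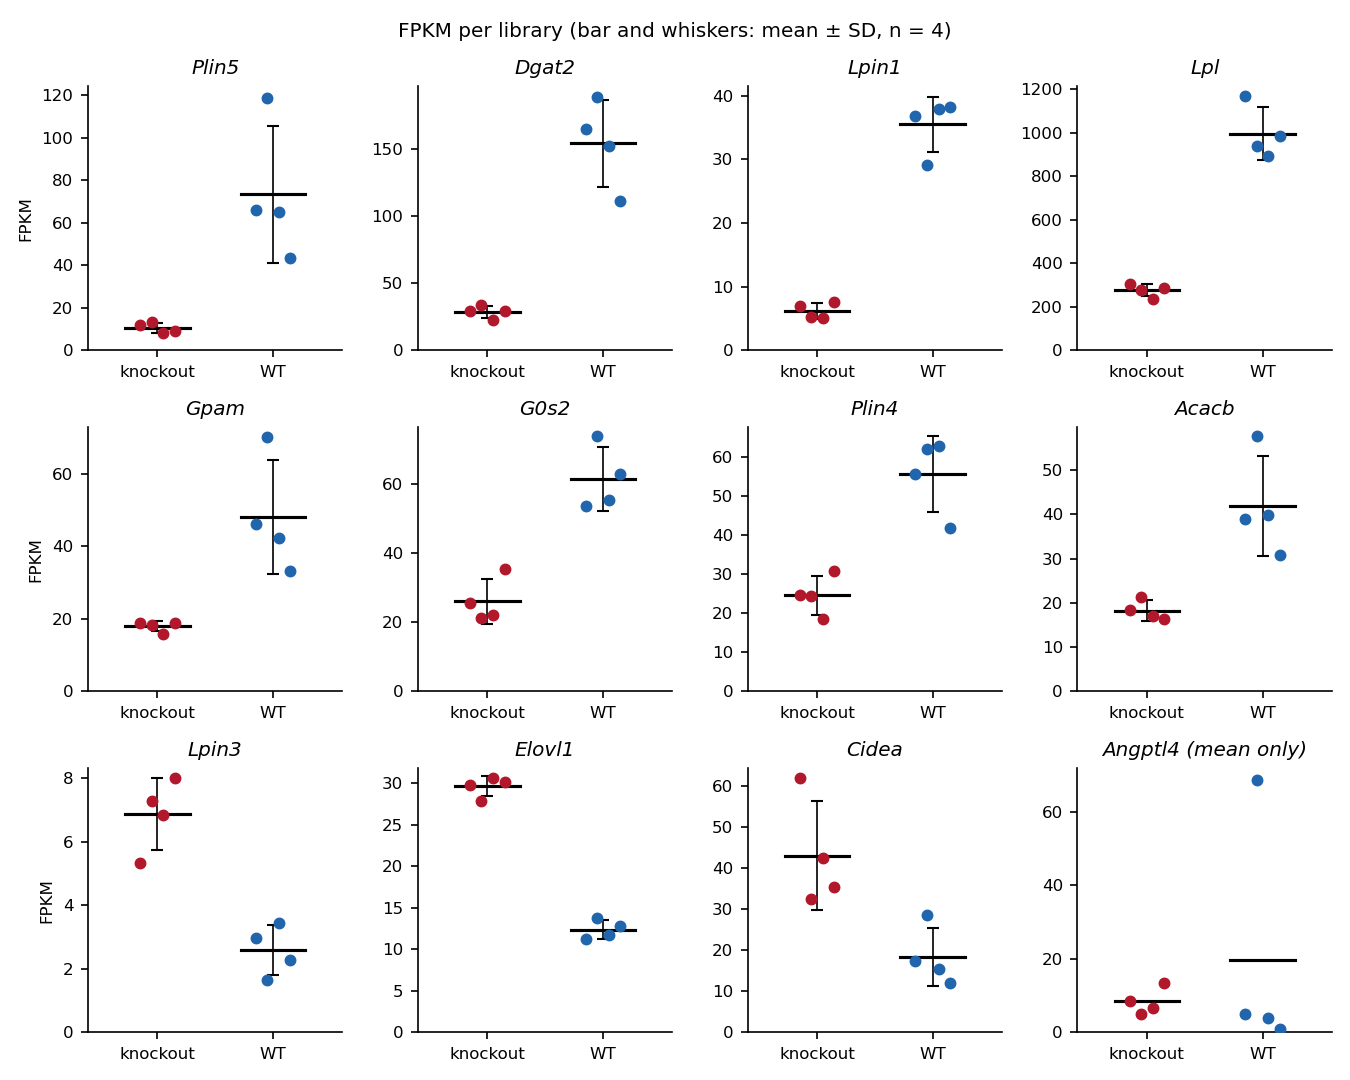
FPKM in each library for the 11 members called with at least a 2-fold change and for Angptl4, knockout in red and WT in blue. Horizontal lines are means and whiskers SDs (n = 4), left out for Angptl4, where WT 2 stands at 68.6 FPKM. In the other 11 panels the points of the groups do not overlap.

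Of the 6 droplet coat genes, 3 were lower (50%), 1 was higher (16.7%) and 2 were not called, as deposited and after rescaling alike. Of all genes 16.4% were lower and 44.9% higher as deposited, and 26.9% and 27% after rescaling. Perilipins are the proteins that cover lipid droplets, and Plin5 is the one known from oxidative tissues, where it binds lipases and places droplets beside mitochondria. Plin5 (chromosome 17, 56111601 to 56117548, minus strand) had 12.03, 13.2, 8.35 and 9.08 FPKM in knockout libraries and 66.2, 119 (WT 2), 64.8 and 43.4 FPKM in WT libraries. No library of the groups overlapped, and the spread was wide in WT and narrow in the knockout. The knockout mean was 14.6% of WT, the lowest percentage among the 11 called falls (log2 change -2.60 ± 0.271, limma adjusted p = 4.18e-05). Without WT 2 the fall was 2.34 in size, still called.

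Plin4, a perilipin of muscle and fat, lies beside Plin5 on the same strand. It had 24.6, 24.4, 18.5 and 30.8 FPKM in knockout libraries and 55.5, 62.0, 62.7 and 41.7 FPKM in WT libraries, again without overlap. It fell by 1.15 ± 0.168 on the log2 scale (limma adjusted p = 0.000312). Plin3, the widely expressed perilipin that moves between cytosol and droplets, had 36.3, 27.4, 26.0 and 21.9 FPKM in knockout libraries and 54.1, 54.3, 66.0 and 48.1 FPKM in WT libraries. The groups did not overlap, and Plin3 fell by 0.98 ± 0.151 (limma adjusted p = 0.000405). Plin2, whose protein is stabilised by lipid on the droplet and follows its abundance, averaged 28.5 ± 6.12 FPKM in the knockout and 29.6 ± 8.14 in WT (SD, n = 4 each) and was not called (log2 change -0.04, limma adjusted p = 0.887).

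The summed FPKM of these 4 perilipins was 91.6 ± 10.6 in the knockout and 214 ± 49.97 in WT (SD, n = 4 each). Plin5 made up 11.7 ± 2.46% of the sum in the knockout and 33.2 ± 6.84% in WT. Plin2 made up 31.0 ± 5.04% in the knockout and 13.8 ± 1.07% in WT. The shares of Plin3 and Plin4 were close between the groups, 30.6% in the knockout and 26.8% in WT for Plin3 and 26.7% in the knockout and 26.3% in WT for Plin4. The log2 ratio of Plin5 to Plin2, which no scaling of a library can change apart from the added 1 FPKM, was -1.17, -0.77, -1.50 and -1.92 in knockout libraries and 1.10, 1.55, 1.20 and 1.06 in WT libraries. Plin2 was the more abundant of the pair in every knockout library and Plin5 in every WT library. The difference was -2.56 (exact two-sided permutation p = 0.0286, adjusted over 9 pairs p = 0.0429, and 0.0286 is the smallest that 70 assignments allow). The ratio of Plin4 to Plin3 overlapped between the groups and differed by -0.16 (exact permutation p = 0.571).

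Sequence before the transcription start was searched for the PPAR element, a direct repeat written AGGTCANAGGTCA, on both strands with at most 2 mismatches in the 12 fixed bases. Windows reached from 250 bases before the start to 50 after it (RefSeq, GRCm38.p6), and 27 of the 37 genes had one. No window was found for Lpl, Gpihbp1, Angptl4, Dgat1, Dgat2, Agpat5, Cidea, Scd1, Scd2 and Fads1, so nothing can be said of these. A match was found in 2 of the 27 genes (7.41%) and in 4.4% of all 27025 genes. The 2 were Plin2 and Elovl1. A search for the single hexamer AGGTCA was added after the data were seen. Among the members it covered only Plin2, Plin3, Plin4, Plin5 and the Elovl1 window with the match. The hexamer occurred without mismatch in the 250 bases before the start of Plin5, Plin2 and Elovl1, and in 14% of 32851 windows. In Plin2 and Elovl1 it lies within the match to the repeat and is no separate result. These windows were chosen and not drawn at random, so the 14% cannot show an excess among them. Neither Plin3 nor Plin4 held the hexamer or a match to the repeat. The sterol element TCACNCCAC was in none of the 27 genes and in 1.44% of all genes. Matches are letters in a window and no evidence of binding.

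The 250 bases before the start are shown for the perilipin that fell most, for its neighbour on the same strand and for the perilipin that was not called, so that these windows can be compared. They lie at chr17:56117549-56117798 (Plin5), chr17:56109783-56110032 (Plin4) and chr4:86670060-86670309 (Plin2), are each read 5′ to 3′ on the minus strand of the genome and end at the base before the start. Elovl1, the desaturation and elongation gene with the smallest adjusted p, is shown at chr4:118429596-118429628, on the plus strand and before the second of its start sites. Capitals mark the AGGTCA hexamer in Plin5 and the 13 bases matched to the repeat, read on the other strand, in Plin2 and Elovl1. The Plin2 match has 2 mismatches and the Elovl1 match 1.
Plin5: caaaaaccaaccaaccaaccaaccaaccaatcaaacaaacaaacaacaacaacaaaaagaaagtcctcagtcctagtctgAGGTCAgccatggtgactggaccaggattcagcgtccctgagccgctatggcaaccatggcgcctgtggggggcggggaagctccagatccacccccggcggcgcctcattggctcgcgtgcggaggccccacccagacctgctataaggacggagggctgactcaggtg
Plin4: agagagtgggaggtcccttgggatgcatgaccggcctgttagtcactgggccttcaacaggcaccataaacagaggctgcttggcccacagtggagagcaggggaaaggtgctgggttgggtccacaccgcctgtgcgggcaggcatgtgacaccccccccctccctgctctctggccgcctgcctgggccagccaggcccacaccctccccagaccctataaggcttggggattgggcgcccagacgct
Plin2: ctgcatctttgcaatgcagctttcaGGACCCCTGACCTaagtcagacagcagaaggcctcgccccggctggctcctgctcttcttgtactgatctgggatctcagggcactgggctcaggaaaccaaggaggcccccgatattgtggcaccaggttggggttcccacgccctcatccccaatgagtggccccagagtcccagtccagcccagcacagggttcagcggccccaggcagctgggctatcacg
Elovl1: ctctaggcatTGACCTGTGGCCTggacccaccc
The hexamer of Plin5 lies 170 to 165 bases before the start, the match of Plin2 225 to 213 bases and that of Elovl1 95 to 83 bases before it. Among the perilipin windows shown, those of Plin5 and Plin2 hold the hexamer and that of Plin4 does not. Whether the hexamer has a part in the changes was not tested.

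The other coat genes, of the CIDE family, enlarge droplets by fusing them. Cidea had 61.9, 32.5, 42.4 and 35.3 FPKM in knockout libraries and 17.5, 28.5, 15.5 and 12.1 FPKM in WT libraries. The groups did not overlap, with WT 2 closest to the knockout. Cidea rose by 1.20 ± 0.263 (limma adjusted p = 0.00315), and by 0.93 after rescaling (limma adjusted p = 0.0124). Brown adipocytes also express Cidea, and their marker Ucp1 had 8.82, 0.05, 0.20 and 102 FPKM in knockout libraries and was listed at 0 in every WT library. Cidea was highest in knockout 1, and knockout 2, at 32.5 FPKM, was little above WT 2, at 28.5 FPKM. Without the 3 libraries that held Adipoq, described below, the change was 0.99 (limma adjusted p = 0.0442), and the part of adipocytes in the rise was not tested. The summed level of 10 fibroblast markers was 953 to 1653 FPKM in knockout libraries and 593 to 703 in WT. Of the 10, 7 were higher and 1 lower as deposited, 5 were higher and 1 lower after rescaling, and their part in this and the other rises was not tested. Cidec had 2.37, 0.05, 0 and 25.2 FPKM in knockout libraries and 0.05, 0, 1.48 and 0.05 FPKM in WT libraries. Knockout 4 stood far above the rest, and Cidec was not called (log2 change 1.27, limma adjusted p = 0.262; without knockout 4, 0.24).

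Among the 10 genes of triglyceride synthesis 5 were lower (50%, against 16.4% of all genes), 3 higher (30%, against 44.9%) and 2 not called. After rescaling 6 were lower (60%, against 26.9%) and 1 was higher (10%, against 27%). Falls of at least 2-fold stood at the first, the third and the last step of the pathway. Gpam encodes the mitochondrial acyltransferase of the first step. It had 18.9, 18.3, 15.8 and 18.8 FPKM in knockout libraries and 46.2, 70.1, 42.2 and 33.2 FPKM in WT libraries. The groups did not overlap, and Gpam fell by 1.32 ± 0.192 (limma adjusted p = 0.000291).

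The second step adds an acyl chain to lysophosphatidic acid. Agpat3, the most abundant member of this family, had 41.5, 35.96, 39.9 and 34.3 FPKM in knockout libraries and 54.6, 71.4, 48.8 and 41.8 FPKM in WT libraries. Every knockout library lay below every WT library, the nearest by less than 1 FPKM, and Agpat3 fell by 0.48 ± 0.149 (limma adjusted p = 0.0192). Agpat2, the isoform that adipocytes depend on, had 10.5, 8.80, 9.56 and 25.0 FPKM in knockout libraries and 27.1, 33.7, 24.2 and 15.04 FPKM in WT libraries. Knockout 4 stood among the WT libraries, so that the groups overlapped, and Agpat2 was lower with a log2 change of -0.92 ± 0.329 (limma adjusted p = 0.0359). Without knockout 4 the change was -1.24 (limma adjusted p = 0.0017), and leaving out any one of knockout 1, 2 or 3 or WT 1, 2 or 3 ended the call, with limma adjusted p between 0.0693 and 0.0941 and changes of -0.76 to -0.91. Agpat5 was higher, at 14.05 ± 1.54 FPKM in the knockout and 10.6 ± 0.662 in WT (SD, n = 4 each), but was not called after rescaling (0.12, limma adjusted p = 0.296). Agpat1 was not called as deposited (-0.11, limma adjusted p = 0.426) and was lower after rescaling (-0.38, limma adjusted p = 0.0258).

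Lipins remove the phosphate from phosphatidic acid to give diacylglycerol, and Lpin1 is the isoform of striated muscle and fat. Lpin1 (chromosome 12, 16535669 to 16589770, minus strand) had 7.02, 5.32, 5.06 and 7.58 FPKM in knockout libraries and 36.8, 29.2, 37.9 and 38.3 FPKM in WT libraries. The groups were far apart, the knockout mean was 17.6% of WT, and Lpin1 fell by 2.34 ± 0.136 (limma adjusted p = 1.97e-06). Lpin3 moved in the other direction: it had 5.33, 7.28, 6.84 and 7.99 FPKM in knockout libraries and 2.98, 1.65, 3.45 and 2.28 FPKM in WT libraries. Lpin3 rose by 1.15 ± 0.172 (limma adjusted p = 0.000356), and by 0.92 after rescaling. Lpin2 averaged 3.103 ± 0.523 FPKM in the knockout and 2.48 ± 0.374 in WT (SD, n = 4 each) and was not called (limma adjusted p = 0.124). Of the summed lipin FPKM, Lpin1 made up 38.5 ± 6.21% in the knockout and 87.6 ± 1.43% in WT. Lpin3 made up 42.4 ± 4.997% in the knockout and 6.29 ± 1.36% in WT. The sum was 16.2 ± 2.14 FPKM in the knockout and 40.6 ± 5.19 in WT, so the rise of Lpin3 was small beside the fall of Lpin1.

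Diacylglycerol acyltransferases carry out the last step. Dgat2 (chromosome 7, 99153663 to 99182713, minus strand) had 29.1, 33.8, 22.5 and 29.6 FPKM in knockout libraries and 165, 189, 152 and 112 FPKM in WT libraries. No libraries overlapped, the knockout mean was 18.6% of WT, and Dgat2 fell by 2.37 ± 0.169 (limma adjusted p = 5.7e-06). Dgat1, the unrelated enzyme for the same step, averaged 11.7 ± 0.872 FPKM in the knockout and 8.76 ± 0.756 in WT (SD, n = 4 each). It was higher as deposited (0.38 ± 0.0841, limma adjusted p = 0.00322) but not after rescaling (0.13, limma adjusted p = 0.209). Dgat2 was 2.12 to 2.89 times as abundant as Dgat1 in knockout libraries and 14.2 to 21.4 times in WT libraries. The log2 ratio differed by -2.76 between the groups, and that of Lpin1 to Lpin2 by -2.58 (each exact two-sided permutation p = 0.0286, adjusted p = 0.0429).

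**Figure D3:**
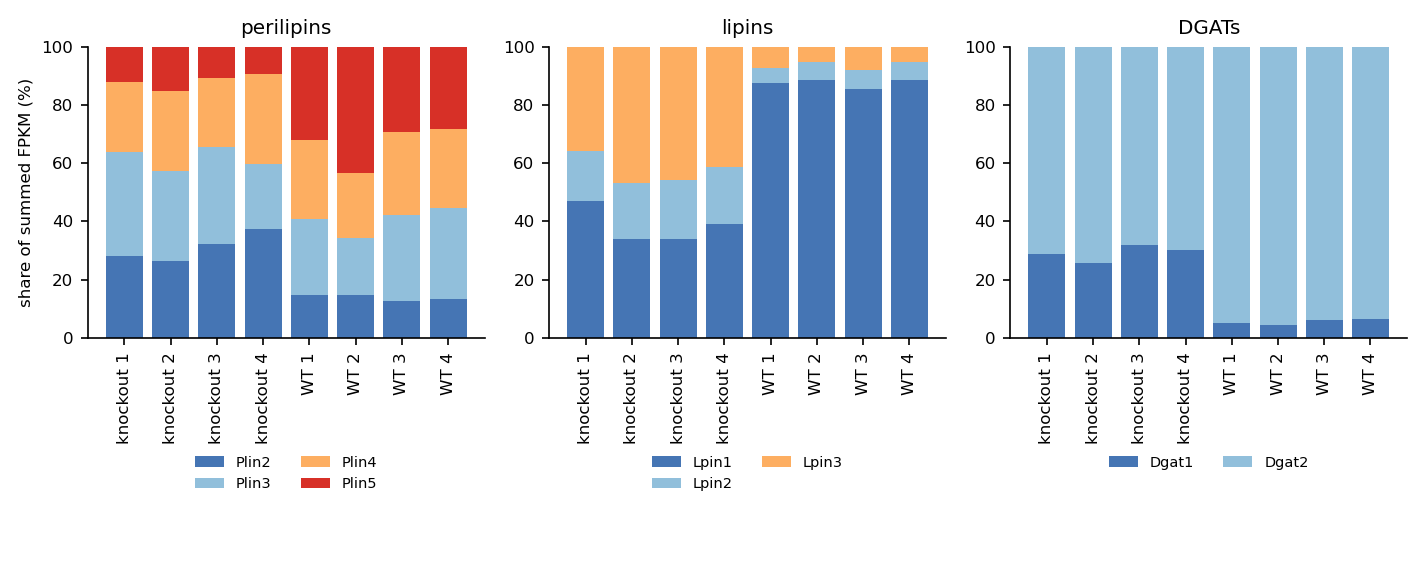
Share of the summed FPKM of perilipins, lipins and DGATs held by each gene, in percent, with 1 bar per library and knockout libraries on the left of each panel. Plin5, Lpin1 and Dgat2 take a smaller share in every knockout library than in any WT library, and Plin2, Lpin3 and Dgat1 a larger one.

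Among the 5 lipolysis genes 1 was lower (20%, against 16.4% of all genes), 1 was higher (20%, against 44.9%) and 3 were not called. After rescaling 1 was lower (20%, against 26.9%), 0 were higher (against 27%) and 4 were not called. Pnpla2 encodes adipose triglyceride lipase, which removes the first acyl chain. It had 170.9, 105, 112 and 114 FPKM in knockout libraries and 106, 169, 103 and 76.2 FPKM in WT libraries. The groups overlapped widely, with knockout 1 and WT 2 both high (log2 change 0.17 ± 0.236, limma adjusted p = 0.54). Mgll, the lipase for the last acyl chain, had 70.8, 54.2, 50.3 and 50.2 FPKM in knockout libraries and 50.3, 68.2, 55.5 and 47.1 FPKM in WT libraries. Those ranges coincided, and Mgll was not called (0.03 ± 0.143, limma adjusted p = 0.878). Lipe, hormone-sensitive lipase, averaged 13.7 ± 6.62 FPKM in the knockout and 15.6 ± 7.14 in WT (SD, n = 4 each) and was not called either (-0.18, limma adjusted p = 0.676).

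Of the regulators of Pnpla2, G0s2 was lower under every setting tried, while the call of Abhd5 depended on the setting. G0s2 encodes a small protein that inhibits adipose triglyceride lipase. It had 25.4, 21.1, 22.1 and 35.3 FPKM in knockout libraries and 53.5, 73.6, 55.3 and 62.8 FPKM in WT libraries. The groups did not overlap, and G0s2 fell by 1.22 ± 0.164 (limma adjusted p = 0.000183). Its log2 ratio to Pnpla2 was -2.23 ± 0.427 in the knockout and -0.83 ± 0.39 in WT (SD, n = 4 each; exact two-sided permutation p = 0.0286, adjusted p = 0.0429). Abhd5, the co-activator of the lipase, averaged 24.2 ± 2.3 FPKM in the knockout and 20.4 ± 1.34 in WT. It was called higher (0.23 ± 0.0855, limma adjusted p = 0.0383), but its groups overlapped and the change turned to -0.03 after rescaling. Leaving out knockout 1, knockout 3, WT 1, WT 3 or WT 4 also ended the call of Abhd5, with changes of 0.18 to 0.24 (limma adjusted p between 0.0649 and 0.103).

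Of the 5 fatty acid synthesis genes, 2 were higher (40%, against 44.9% of all genes), 1 was lower (20%, against 16.4%) and 2 were not called. After rescaling 1 was higher (20%, against 27%), 1 was lower (20%, against 26.9%) and 3 were not called. Acetyl-CoA carboxylase makes malonyl-CoA, and its muscle form Acacb sits at mitochondria, where malonyl-CoA restrains fatty acid entry. Acacb had 18.3, 21.4, 17.0 and 16.2 FPKM in knockout libraries and 39.0, 57.6, 39.9 and 30.9 FPKM in WT libraries. The groups did not overlap, and Acacb fell by 1.13 ± 0.171 (limma adjusted p = 0.000375). Acaca, the cytosolic form, had 2.30, 2.26, 1.97 and 5.28 FPKM in knockout libraries and 2.30, 2.14, 2.37 and 1.75 FPKM in WT libraries. Apart from knockout 4 these values coincided, and Acaca was not called (0.27, limma adjusted p = 0.322; without knockout 4, 0.02). The log2 ratio of Acacb to Acaca differed by -1.39 (exact two-sided permutation p = 0.0286, adjusted p = 0.0429).

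Acly, which makes cytosolic acetyl-CoA from citrate, had 20.3, 17.2, 20.5 and 23.8 FPKM in knockout libraries and 13.2, 12.7, 14.4 and 12.7 FPKM in WT libraries. All knockout libraries were above all WT libraries, and Acly rose by 0.58 ± 0.099 (limma adjusted p = 0.000738), and by 0.32 after rescaling (limma adjusted p = 0.0149). Fasn, fatty acid synthase, had 5.77, 7.66, 5.64 and 12.3 FPKM in knockout libraries and 3.62, 3.70, 5.66 and 3.54 FPKM in WT libraries. Knockout 3 and WT 3 met at the edge, Fasn was higher by 0.74 ± 0.225 (limma adjusted p = 0.0168), and rescaling ended the call (0.51, limma adjusted p = 0.0806). Srebf1, the transcription factor of this set, averaged 7.34 ± 1.36 FPKM in the knockout and 6.73 ± 1.34 in WT (SD, n = 4 each) and was not called (0.11, limma adjusted p = 0.523).

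Of the 7 elongation and desaturation genes 6 were tested. As deposited 3 were higher (50%, against 44.9% of all genes) and 0 lower (against 16.4%). After rescaling 2 were higher (33.3%, against 27%) and 0 lower (against 26.9%). With 6 genes, these shares cannot be set apart from those of all genes. Outside the members, Tecr of the elongation cycle was lower (log2 change -1.40, limma adjusted p = 6.89e-06), and so was the desaturase gene Scd4, given below. Elovl1, the elongase of saturated very long chains, had 29.8, 27.9, 30.7 and 30.2 FPKM in knockout libraries and 11.2, 13.8, 11.8 and 12.8 FPKM in WT libraries. Both groups were tight and far apart. Elovl1 rose by 1.20 ± 0.0784 (limma adjusted p = 3.51e-06), and by 0.93 after rescaling. Elovl5, an elongase of polyunsaturated chains, had 17.5, 16.4, 15.5 and 21.0 FPKM in knockout libraries and 16.0, 16.2, 16.3 and 15.1 FPKM in WT libraries, which overlapped (0.13 ± 0.0947, limma adjusted p = 0.263). Elovl6, the elongase of palmitate, was too low to test, at 0.32, 0.70, 0.44 and 2.20 FPKM in knockout libraries and 0.25, 0.17, 0.33 and 0.27 FPKM in WT libraries.

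The front-end desaturases Fads1 and Fads2 introduce double bonds into polyunsaturated chains. Fads1 had 9.65, 11.8, 11.0 and 11.0 FPKM in knockout libraries and 5.76, 5.52, 5.53 and 6.57 FPKM in WT libraries, without overlap. Fads1 rose by 0.79 ± 0.0853 (limma adjusted p = 5.04e-05), and by 0.54 after rescaling (limma adjusted p = 0.000978). Fads2, which lies with Fads1 on chromosome 19, averaged 4.74 ± 1.54 FPKM in the knockout and 2.79 ± 0.38 in WT (SD, n = 4 each). It was called higher as deposited (0.57, limma adjusted p = 0.0232) and not after rescaling (0.35, limma adjusted p = 0.134). Leaving out knockout 2, WT 1 or WT 4 also ended the call of Fads2, with changes of 0.51 to 0.54 (limma adjusted p of 0.057, 0.0587 and 0.0623). Scd1, which makes oleate from stearate and is abundant in fat, had 8.74, 4.59, 4.17 and 47.0 FPKM in knockout libraries and 3.19, 2.27, 7.99 and 2.97 FPKM in WT libraries. Knockout 4 and WT 3 were the high libraries of their groups, and Scd1 was not called (1.20 ± 0.657, limma adjusted p = 0.142). Scd2, the isoform of brain and developing tissues, averaged 9.94 ± 2.49 FPKM in the knockout and 9.67 ± 4.04 in WT and was not called (0.09, limma adjusted p = 0.791). The Scd genes are similar copies in 1 cluster of chromosome 19, and reads that they share make their separate values uncertain.

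**Figure D4:**
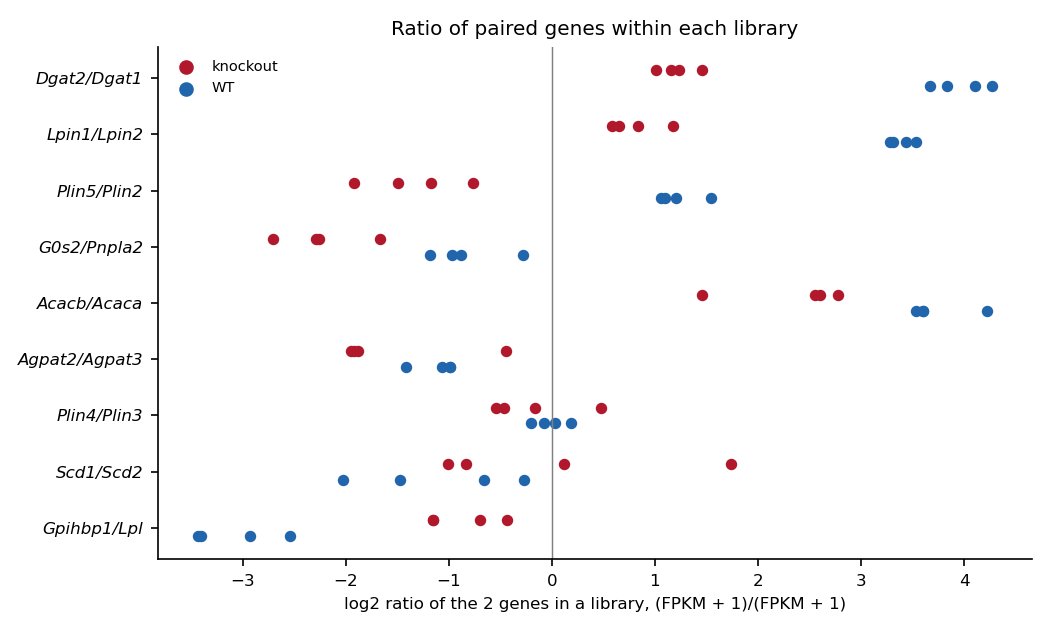
Log2 ratio of the genes of each pair within each library, computed on FPKM + 1, with knockout libraries in red above WT libraries in blue. In 6 of the 9 pairs the groups do not overlap, and they overlap for Plin4 to Plin3, Agpat2 to Agpat3 and Scd1 to Scd2.

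Ratios within a library were compared for 9 pairs in all, 6 of which differed between the groups with an adjusted p of 0.0429. The pairs were drawn from members chosen with earlier results of these data known. Where both genes of a pair separate in opposite directions, as Dgat2 and Dgat1 did, their ratio has to separate too. These p-values are thus no evidence beyond the changes of the single genes, and the adjusted value depends on which pairs were chosen. Besides those given above, the ratio of Gpihbp1 to Lpl had a log2 value of -0.86 ± 0.352 in the knockout and -3.08 ± 0.426 in WT (SD, n = 4 each). Gpihbp1 was at 0.448 to 0.737 of the Lpl level in knockout libraries and at 0.0914 to 0.171 in WT libraries. Agpat2 to Agpat3 differed by -0.44 (exact permutation p = 0.4) and Scd1 to Scd2 by 1.11 (exact permutation p = 0.2), neither beyond the spread.

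Cidec, Scd1, Agpat2, Acaca, Lipe and Fasn were each highest among knockout libraries in knockout 4, which was also highest for markers of adipocytes. This was not particular to them. Knockout 4 was also highest for Angptl4, Plin2, Plin4, Agpat5, Lpin1, Lpin2, Lpin3, Dgat1, G0s2, Acly, Srebf1, Scd2, Elovl5, Elovl6 and Fads2. The share of all genes highest in knockout 4 was not counted. Among WT libraries Cidec, Scd1 and Fasn were highest in WT 3, as the markers were, and so by a small margin was Acaca. Agpat2 (33.7 FPKM) and Lipe (25.3 FPKM) were instead highest in WT 2. Without Fabp4, which other heart cells express, 9 adipocyte markers summed to 24.1, 0.341, 0.924 and 272 FPKM in knockout libraries and 0.377, 0.0302, 21.5 and 0.201 FPKM in WT libraries. The high libraries were knockout 4, knockout 1 and WT 3, and of the 9 markers 6 and 5 were listed at 0 in knockout 2 and knockout 3, and 7, 8 and 7 in WT 1, WT 2 and WT 4. Adipoq, the adipocyte hormone adiponectin, had 1.82, 0, 0.14 and 21.0 FPKM in knockout libraries and 0, 0, 3.34 and 0 FPKM in WT libraries. The part of this in the levels of Cidec, Scd1, Agpat2, Acaca, Lipe and Fasn was not tested, but the comparison was repeated without the 3 libraries above 1 FPKM of Adipoq, a setting chosen after seeing the data. It left 2 knockout libraries (2 and 3) and 3 WT libraries (1, 2 and 4), and called 10 members higher and 10 lower, where 40.1% of all genes were higher and 15.2% lower. There Agpat3 (limma adjusted p = 0.0832) and Abhd5 (limma adjusted p = 0.151) lost their calls, and Scd1 gained one (0.50, limma adjusted p = 0.023). Each of the 8 members with a fall of at least 2-fold kept its call, with changes of -2.62 for Plin5, -2.42 for Dgat2, -2.52 for Lpin1 and -1.99 for Lpl.

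**Figure D5:**
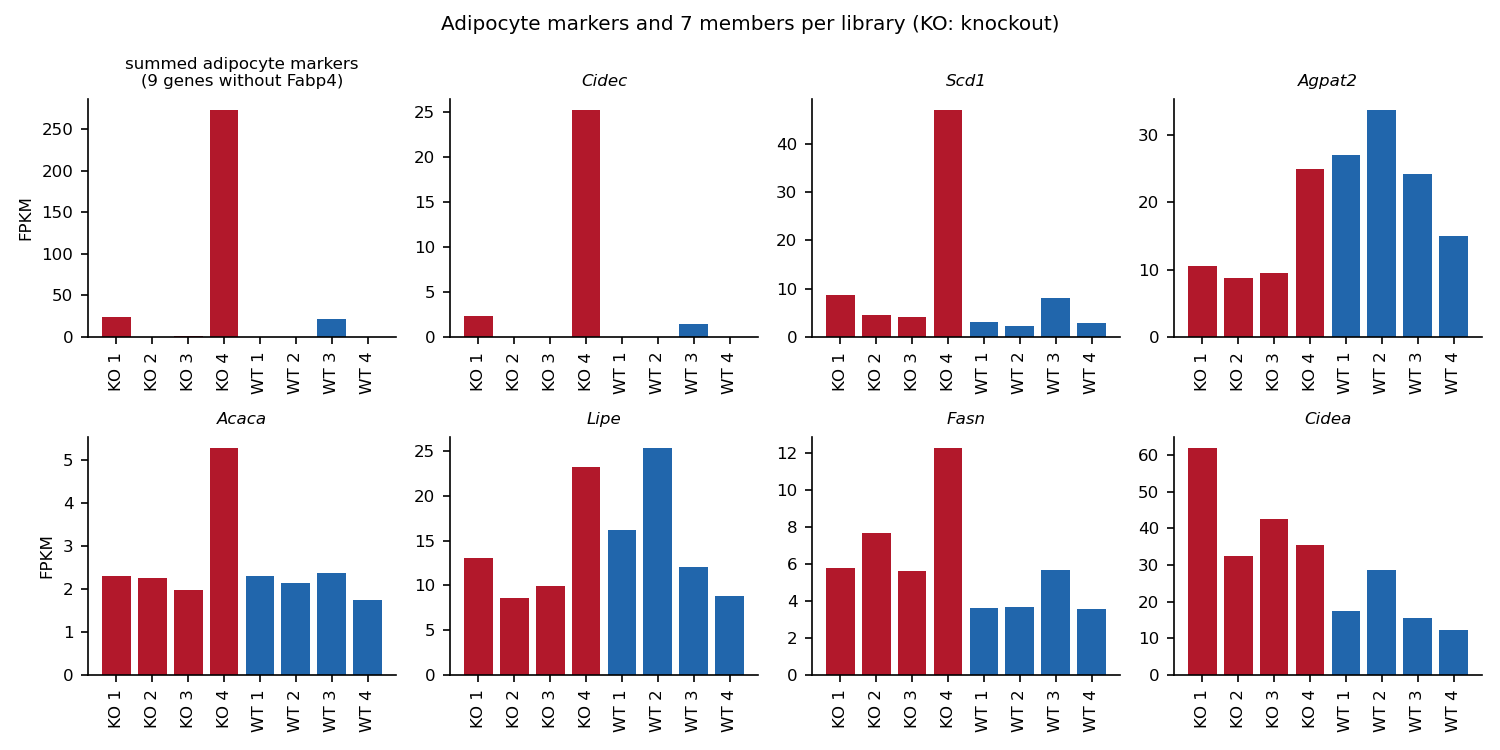
Summed FPKM of 9 adipocyte markers and FPKM of 7 members in each library, knockout (KO) in red on the left and WT in blue. Knockout 4 has the highest bar for the markers, Cidec, Scd1, Acaca and Fasn, while for Cidea it is below knockout 1 and knockout 3. For Agpat2 and Lipe the highest bar is WT 2.

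Beyond the 37 genes, 58 other genes of the same pathways were looked up and 43 were tested. As deposited 20 were higher (46.5%, against 44.9% of all genes) and 10 lower (23.3%, against 16.4%). After rescaling 12 were higher (27.9%, against 27%) and 14 lower (32.6%, against 26.9%), so the share that was higher was near that of all genes in both. Genes lower in the knockout included both FIT genes, whose proteins help droplets bud from the endoplasmic reticulum. Fitm1, the muscle form, averaged 20.9 ± 9.4 FPKM in the knockout and 152 ± 15.6 in WT (SD, n = 4 each) and fell by 2.90 ± 0.261 (limma adjusted p = 1.9e-05). Fitm2 averaged 21.2 ± 1.64 FPKM in the knockout and 63.0 ± 7.1 in WT and fell by 1.52. Acsl1, which activates fatty acids with coenzyme A, averaged 88.2 ± 7.21 FPKM in the knockout and 263 ± 46.9 in WT and fell by 1.55. Mid1ip1, which activates acetyl-CoA carboxylase, averaged 11.0 ± 2.18 FPKM in the knockout and 43.9 ± 2.7 in WT and fell by 1.92. The carboxylesterase gene Ces1d fell by 3.93 (2.55 ± 3.48 FPKM in the knockout and 42.3 ± 15.6 in WT). Scd4, the stearoyl-CoA desaturase known from heart, had 0.479, 1.43, 0.565 and 0.719 FPKM in knockout libraries and 6.13, 21.7, 5.19 and 1.41 FPKM in WT libraries. Its groups met at 1 library each, and Scd4 fell by 1.99 (limma adjusted p = 0.0114).

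Among the higher genes, which differed in the same direction as the fibroblast markers, Fads3, the third gene of the Fads cluster, changed most. It averaged 76.3 ± 4.81 FPKM in the knockout and 17.1 ± 3.09 in WT (SD, n = 4 each) and rose by 2.10 ± 0.117 (limma adjusted p = 1.62e-06). Acsl4, an acyl-CoA synthetase that prefers arachidonate, averaged 15.04 ± 2.7 FPKM in the knockout and 5.11 ± 0.306 in WT and rose by 1.38. Ptpla, a dehydratase of the elongation cycle, averaged 266 ± 21.8 FPKM in the knockout and 119 ± 10.9 in WT and rose by 1.16. Daglb, a diacylglycerol lipase, rose by 1.02. Insig1 and Insig2, which hold SREBP in the endoplasmic reticulum, rose by 0.99 and 0.96. All 12 of these named genes kept their direction and call after rescaling.

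Of 12 regulators looked up, Med1 among them, 4 were higher (33.3%, against 44.9% of all genes) and 6 lower (50%, against 16.4%). After rescaling 1 was higher (8.33%, against 27%) and 7 lower (58.3%, against 26.9%). Ppara averaged 3.54 ± 0.824 FPKM in the knockout and 15.4 ± 4.45 in WT (SD, n = 4 each) and fell by 1.83. Its partner Rxrg fell by 2.46, and the coactivators Ppargc1a and Ppargc1b by 1.65 and 2.10. Nr1h3, which encodes LXR alpha, rose by 1.27. Rxra fell by 0.39. Nr1h2, Srebf2 and Mlxipl were called higher, by 0.40, 0.56 and 0.57, and rescaling ended their calls. Ppard (-0.21, limma adjusted p = 0.0602) and Pparg (0.06, limma adjusted p = 0.884) were not called, although Ppard was lower after rescaling (-0.47, limma adjusted p = 0.00151).

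The authors' deposited table compares the same libraries by Cuffdiff. Of the 37 members in the authors' deposited table, 9 were higher, 14 were lower and 14 were not significant, where 23.1% of 12539 genes were higher and 22.8% lower. For 36 members it can be set beside limma: 17 were called the same way in both, and 0 had opposite calls. The authors' deposited table alone called Angptl4, Plin2, Cidec, Agpat1 and Scd1, while limma alone called Agpat5, Dgat1, Abhd5 and Fads2. Part of this goes with the scaling of libraries. After rescaling, limma did not call Agpat5, Dgat1, Abhd5 or Fads2 either, and called Agpat1 lower. Counting genes not called in both, the same result was given for 27 of the 36 as deposited and for 30 after rescaling. For Angptl4 the authors' deposited table gives pooled levels of 8.92 FPKM in the knockout and 25.3 FPKM in WT, a log2 change of -1.50 and a q-value of 0.000211. That sign is opposite to the change of 1.21 that limma gives without WT 2, the library at 68.6 FPKM.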

How the data were processed

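Ventricles were frozen, and poly(A) RNA extracted from them was sequenced as stranded libraries, as the labels' protocols say. Alignment by the TopHat application (version 1.0.0) to mm10 and the use of Cufflinks with Cuffdiff come from the submitters' processing notes. No source used here names the annotation or says if strand was used in counting, so reads of genes that overlap others on the opposite strand (Agpat2, G0s2, Elovl1, Plin4) may be shared. In the authors' table of FPKM, each gene has a value for each library, per the file headers. In the authors' deposited table of the comparison, each gene has a pooled FPKM per group, a log2 fold change, a test score, a p-value and a q-value, all made by Cuffdiff. FPKM falls for a gene when other genes take more of the library. A value of 0.001 FPKM was set back to 0, and 312 rows without numbers were left out. Deposited loci count from 0 and are printed from 1.

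Log2(FPKM + 1) was tested with limma (version 3.58.1, R 4.3.3) with an intensity trend, over all 8 libraries and those genes whose mean reached 1 FPKM, with two-sided p-values adjusted by Benjamini-Hochberg over all genes tested and called under 0.05. Rescaling divided each library by its median of ratios. Ratios of gene pairs were compared by exact permutation tests. The procedure was tested on simulated data. Depth is unknown, so no counting interval is given. The members and gene lists were chosen with earlier results of these data known. Library values are given for members called with a log2 change of at least 1 in size or among the 2 most abundant of their role, and up to 6 other pathway genes per direction are named by size of change. Values per library of other members were chosen after they were seen. Tecr, named besides these, was also chosen after its values were seen. Alternatives were a pseudocount of 0.1, no minimum or one of 5 FPKM, rescaling, quantile normalization, limma without trend or with robust variances, a replicate block, and each library left out. Libraries with at least 1 FPKM of Adipoq, without and with WT 2, were also left out, settings chosen after seeing the data. Planned protein comparisons were not made.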

Additional observations from a re-analysis of the deposited data

Results flagged for a closer look

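In 12 of 92 groups of 4 libraries examined, 1 library stood far from the other 3, by a gap to the nearest of them that exceeded Dixon's 95% critical share of the group's range, where chance gives about 1 in 20. Knockout 4 was such a library for Cidec (25.23 FPKM), Agpat2 (24.99 FPKM), Acaca (5.278 FPKM), Scd1 (46.97 FPKM) and the log2 ratio of Agpat2 to Agpat3 (-0.4436). In knockout 4 the adipocyte markers without Fabp4 summed to 272 FPKM, the highest of the 8 libraries. WT 3 stood apart for Cidec (1.479 FPKM), Scd1 (7.987 FPKM) and Fasn (5.656 FPKM), and its sum of those markers was 21.5 FPKM, the highest in WT. WT 2 stood apart for Angptl4 (68.55 FPKM), for Lpin1, where it was the lowest (29.17 FPKM), and for the log2 ratio of Acacb to Acaca (4.224). Knockout 1 stood apart for Pnpla2 (170.9 FPKM).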

How the results depend on the processing

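Of 21 called members, 14 kept their call under every alternative that tested them (Lpin3, 1 of the 14, was too low for the minimum of 5 FPKM), and 34 of 643 combinations of a member and a setting changed the sign of a change that was not called. Rescaling left 5 members higher, 12 other pathway genes higher, and 3237 of all genes higher and 3223 lower. Quantile normalization left 5 members higher, 12 other pathway genes higher, and 3437 of all genes higher and 3066 lower. Abhd5 reversed to -0.0349 under rescaling and to -0.0228 under quantile normalization. The cause was not tested. With 1 library left out, 8 to 11 members were higher and 10 to 11 lower, 16 to 20 other pathway genes were higher and 9 to 11 lower, and 4901 to 5279 of all genes were higher and 1798 to 1949 lower. Pair ratios then differed by -2.75 to -2.37 (Plin5/Plin2), -0.38 to -0.04 (Plin4/Plin3), -2.86 to -2.66 (Dgat2/Dgat1), -2.70 to -2.50 (Lpin1/Lpin2), -0.80 to -0.30 (Agpat2/Agpat3), -1.54 to -1.10 (Acacb/Acaca), 0.53 to 1.45 (Scd1/Scd2), -1.59 to -1.21 (G0s2/Pnpla2) and 2.08 to 2.40 (Gpihbp1/Lpl), as values without a test.

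Deviations of libraries with the same replicate number correlated by 0.14, 0.03, -0.04 and -0.01. These values were not tested and cannot settle whether the numbers pair the samples. With the replicate block, 9 members were higher and 10 lower, Abhd5 and Agpat2 having lost their calls, and 5089 of all genes were higher and 1867 lower. Low genes such as Cidec and Elovl6 rest on few fragments, whose number is unknown.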
